A study of Caenorhabditis elegans with 44 samples.

Results

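The third larval cycle of *Caenorhabditis elegans*, sampled 22 to 28 h after plating, was compared with the second larval cycle, sampled 15 to 21 h after plating. Each side held 7 hourly small RNA libraries of the 44 in the series, and each hour of the third cycle was matched to the hour 7 h earlier, so that 22 h was set against 15 h and 28 h against 21 h. The strands compared were those with a mean of at least 10 raw counts over all 44 libraries, which left 272 of the 437 mature microRNA strands in the table. Animals of both cycles were untreated wild-type worms of the N2 strain that were grown as a single population at 25 °C after plating of synchronised first-stage larvae, and whole animals were pooled for each library. Each hour had 1 library and no biological replicate, the cycles were set by the hour alone, and larval stage was not scored in the sample labels. The test therefore measured a shift between cycles against its spread over matched hours of 1 time course, and neighbouring hours are not independent cultures.

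MicroRNAs are cut as a duplex from a hairpin precursor, and either strand (named 5p or 3p by its arm) can be loaded into an Argonaute protein, where its seed selects target mRNAs. The strand that is more abundant is called the guide and its partner the passenger, which is usually degraded soon after loading. In worm larvae, heterochronic microRNAs, above all lin-4 and the let-7 family, time the succession of larval cell fates, while many transcripts rise and fall once in each molting cycle.

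Library totals were 7446763 to 11757221 counts in the third cycle and 7059421 to 13630998 counts in the second cycle. The mean log2 difference in total was 0.02, with 4 of 7 matched hours higher in the third cycle (exact sign-flip permutation test, two-sided, p = 0.922, smallest possible p = 0.0156). The 272 strands held 99.997% of all counts. Levels below are normalised counts, that is raw counts scaled to the mean library total of the series. The 5 most abundant strands of each library took 39.4% to 42.0% of the counts in the third cycle, against 43.5% to 49.7% in the second cycle, and the share was lower at all 7 matched hours (mean difference -5.31 percentage points, exact permutation test, two-sided, p = 0.0156). In whole animals, fewer cells of a type and less RNA per cell cannot be told apart.

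Between the cycles, a small group of microRNAs was switched on or climbed steeply, while most other strands moved little. Of the 272 strands, 65 rose (23.9%) and 52 fell (19.1%) in the third cycle at an adjusted p under 0.05 in edgeR's quasi-likelihood test with matched hour as a block, together 43% of those tested. The sizes were unequal, since 25 strands rose by at least 1 log2 unit (9.19%) and 4 fell by as much (1.47%). Those 4, miR-2221, miR-4811-3p, miR-4920 and miR-244-3p, were rare, with means of 5.64 to 20.4 in the third cycle and 11.8 to 42.6 in the second cycle; they were named after their values were seen. The median difference over all strands was 0.03, with quartiles of -0.27 and 0.34. For 19 strands (6.99%) every hour of the third cycle lay above every hour of the second cycle, and for 7 (2.57%) every hour lay below. The third cycle was higher at all 7 matched hours for 54 strands (19.9%) and lower at all 7 for 39 (14.3%). When correlation between neighbouring hours was modelled, 28 strands rose and 32 fell, and of the 10 largest rises given below the call remained for miR-85-3p.

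**Figure D1:**
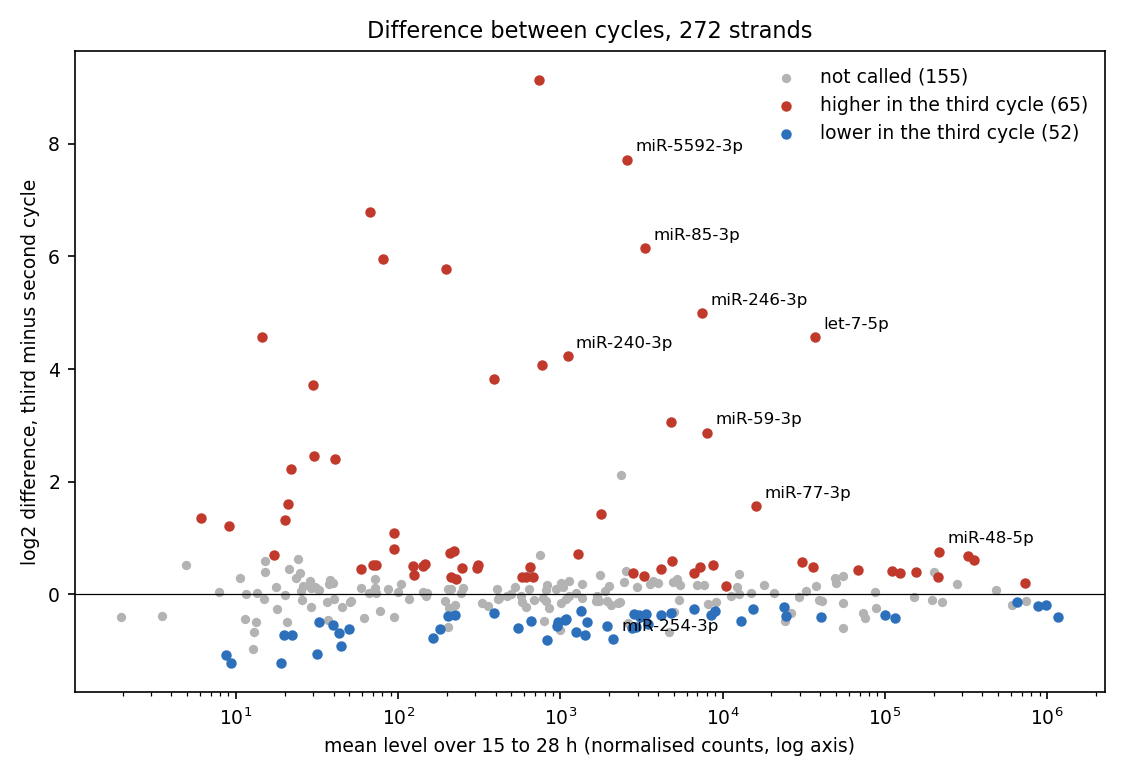
Each point is 1 of 272 strands, with its mean level over 15 to 28 h (normalised counts, log axis) on the horizontal axis and the fitted log2 difference, the third minus the second cycle, on the vertical axis. Red points (65) rose, blue points (52) fell and grey points (155) did not pass the test. The rises reach 9.13 log2 units, whereas the falls end near -1.2.

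The largest rise belonged to miR-5592, annotated on chromosome X as a pair of overlapping hairpins on opposite strands, one of them at 13759245-13759308 (WBcel235). miR-5592-3p had 29.7, 157.5, 890.9, 2737, 5752, 10970 and 15680 normalised counts at 22 to 28 h, whereas it lay between 5.51 and 14.7 at all 7 hours of the second cycle. The strand was thus present at a trace level until 21 h and climbed at every hour of the third cycle, with no overlap between the cycles. The fitted difference was 7.72 ± 1.12 (log2, SE, adjusted p = 0.001). miR-5592-5p followed it, with 3.60 normalised counts at 22 h and 4657 at 28 h in the third cycle, against 0.825 to 3.21 in the second cycle, where 1 to 3 raw counts lay behind each value. Its difference of 9.13 ± 0.78 (SE, adjusted p = 9.66e-05) therefore rested on a reference close to zero. Reads from the 2 hairpins of the pair cannot be told apart.

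The neighbours miR-357 and miR-358, encoded on the minus strand of chromosome V with 206 bases between their hairpins, rose over the same hours. miR-357-3p had 108.8, 227.4, 667.9, 1303, 1983, 2732 and 3350 normalised counts at 22 to 28 h, against 30.3 to 74.5 in the second cycle. miR-358-3p had 8.09 normalised counts at 22 h and 1067 at 28 h in the third cycle, against 0 to 9.36 in the second cycle. Both climbed hour by hour, and only the 22 h library of miR-358-3p overlapped the second cycle. The differences were 4.08 ± 0.53 for miR-357-3p (SE, adjusted p = 0.000545) and 5.78 ± 0.69 for miR-358-3p (adjusted p = 0.00035). miR-358-5p also rose (5.95 ± 0.41, adjusted p = 3.03e-05), while miR-357-5p was too rare to be tested.

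Further strands joined this climb from higher starting levels. miR-246-3p, whose level in adult worms is known to be associated with lifespan, had 415.4, 2081, 5496, 10520, 16810, 25920 and 41940 normalised counts at 22 to 28 h, against 69.8 to 438.1 in the second cycle. Only its 22 h value fell within the range of the second cycle (difference 5.00 ± 0.63, SE, adjusted p = 0.000458). miR-59-3p had 2780 normalised counts at 22 h and 32130 at 28 h in the third cycle, against a flat 1249 to 1717 in the second cycle (2.87 ± 0.49, adjusted p = 0.00191). miR-59-3p lies outside the 10 largest rises and is given for its slope and step below. The passenger strands moved with their guides, since miR-246-5p and miR-59-5p rose by 6.79 ± 0.55 and 3.71 ± 0.46 from levels of at most 4.49 and 7.33 normalised counts in the second cycle.

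A different course was taken by strands whose climb had begun in the second cycle. miR-85-3p had 1413, 2209, 3360, 4839, 6373, 10130 and 17370 normalised counts at 22 to 28 h, against 27.8, 21.1, 27.0, 45.4, 54.3, 233.9 and 575.8 at 15 to 21 h. It climbed at each hour from 17 h to 28 h, and the cycles did not overlap (6.15 ± 0.33, SE, adjusted p = 5.35e-06). Its partner miR-85-5p was at 0 counts in 5 of the 7 libraries of the second cycle and at 7.11 to 93.5 normalised counts in the third cycle (4.56 ± 0.45, adjusted p = 0.000179).

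The neighbours miR-240 and miR-786, encoded 32 bases apart on the plus strand of chromosome X (7882622-7882718 and 7882751-7882840, WBcel235), behaved alike. The cluster is known for its part in the rhythm of the defecation motor program, in which miR-786 acts in the intestine. miR-240-3p ranged from 1003 to 3891 normalised counts in the third cycle (median 1943), against 17.1 to 594.9 in the second cycle (median 89.9). miR-786-3p ranged from 396.4 to 1671 in the third cycle, against 6.42 to 227.1 in the second cycle. Neither overlapped between the cycles, and the differences were 4.23 ± 0.50 (SE, adjusted p = 0.00035) and 3.83 ± 0.38 (adjusted p = 0.000179). miR-240-5p, the more abundant strand of its hairpin, overlapped, with 4203 to 16510 in the third cycle and 43.8 to 6554 in the second cycle (3.06 ± 0.88, adjusted p = 0.0227). That call was lost without the matched-hour block (1.91, adjusted p = 0.111) and without the pair of 24 and 17 h (2.89, adjusted p = 0.0612), and its adjusted p ran from 4.8e-05 to 1 over 20 alternatives.

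**Figure D2:**
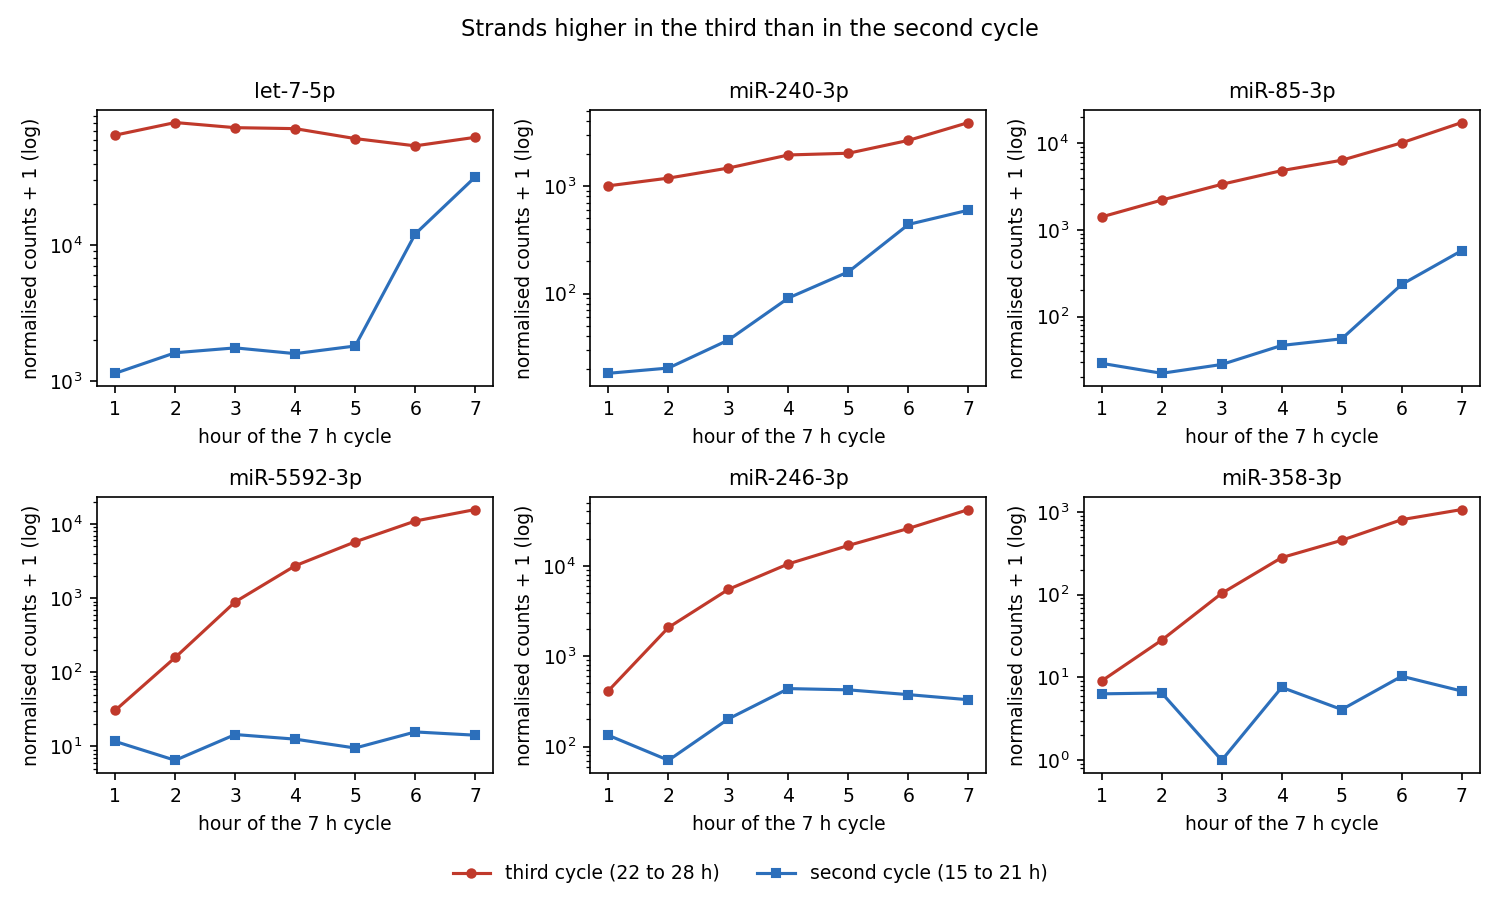
Normalised counts plus 1 (log axis, scaled separately in each panel) against the hour of the 7 h cycle for 6 strands, with the third cycle (22 to 28 h) as red circles and the second cycle (15 to 21 h) as blue squares, 1 library per point. let-7-5p, miR-240-3p and miR-85-3p climb late in the second cycle, whereas miR-5592-3p, miR-246-3p and miR-358-3p climb within the third cycle, miR-5592-3p to 15680 at 28 h.

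let-7-5p, which represses lin-41 and drives the transition to adult fates, had 64750, 80200, 73520, 72310, 61080, 54010 and 62430 normalised counts at 22 to 28 h. At 15 to 19 h it lay between 1138 and 1809, and it reached 12110 at 20 h and 31850 at 21 h. The strand thus stayed between 54010 and 80200 through the third cycle, without overlap between the cycles (4.57 ± 0.76, SE, adjusted p = 0.00182). The let-7 family of shared seed had 7 members, all tested, of which 2 rose, 1 fell and 4 did not pass the test (median 0.16, against 0.03 over all strands), counts that lie near the 23.9% and 19.1% of all strands. miR-48-5p, which with miR-84 and miR-241 represses hbl-1 at the transition between the second and the third larval stage, had 243600 to 299200 normalised counts in the third cycle, against 101600 to 216900 in the second cycle. It did not overlap between the cycles and rose by 0.76 ± 0.12 (adjusted p = 0.00152). miR-84-5p (0.30 ± 0.12, adjusted p = 0.0831) and miR-241-5p (0.17 ± 0.20, adjusted p = 0.528) did not pass the test. miR-793 fell by 0.47 ± 0.08 (adjusted p = 0.00152) and was lower at all 7 matched hours. The summed level of the family was 387100 to 466800 in the third cycle, against 170600 to 345400 in the second cycle.

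The lin-4 family, of which lin-4 itself represses lin-14 at the end of the first larval stage, was split. miR-237-5p had 350700 to 488800 normalised counts in the third cycle (median 444900), against 216400 to 378300 in the second cycle (median 281600), and rose at all 7 matched hours (0.61 ± 0.09, SE, adjusted p = 0.00104). lin-4-5p stayed within 28610 to 37570 in the third cycle and 27880 to 37560 in the second cycle (0.06 ± 0.05, adjusted p = 0.42).

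All 4 members of the miR-64 family rose, against 23.9% of all strands. Their hairpins are neighbours in an intron of gcn-1 on chromosome III, with gaps of 281, 44 and 6 bases, so the 4 are not independent cases. The differences were 0.31 for miR-64-5p, 0.39 for miR-65-5p, 0.43 for miR-66-5p and 0.37 for miR-229-5p, and their summed level was 535700 to 771000 in the third cycle, against 412200 to 544300 in the second cycle. The call for miR-64-5p (adjusted p = 0.0316) was lost with TMM scaling and in 5 of the 7 fits that left out a matched pair. In the miR-239 family, miR-238-3p (0.42 ± 0.04, SE, adjusted p = 0.000179) and miR-239a-5p (0.46 ± 0.10, adjusted p = 0.00712) rose, and miR-239b-5p did not pass the test (0.22 ± 0.26). In the miR-2 family, miR-250-3p rose (0.48 ± 0.14), whereas miR-2-3p and miR-43-3p fell by 0.40 ± 0.06 and 0.43 ± 0.09. The call for miR-250-3p was lost in 7 of 20 alternatives, 4 of which left out a pair. Of the 4 tested strands of the miR-58 family, which is related to bantam of flies, miR-82-3p rose (0.21 ± 0.05, adjusted p = 0.0108, lost with TMM scaling), and miR-58a-3p, miR-80-3p and miR-81-3p did not pass. The miR-51 family had 0 calls among 6 strands in edgeR's test and in DESeq2, with 0 at an unadjusted p under 0.05. Of the miR-50 family, miR-62 and miR-50-5p fell and miR-90-3p did not pass the test (-0.19 ± 0.08), and the call for miR-50-5p was lost in 9 of 20 alternatives, 5 of which left out a pair. miR-72-5p was the called member of the 3 in the miR-72 family, miR-233-3p fell (-0.33 ± 0.07) and miR-87-3p did not pass in the miR-87 family, and of the 4 strands of the miR-44 family miR-44-3p fell by 0.14 ± 0.05 (adjusted p = 0.0436). That call was lost in 10 of 20 alternatives, 6 of which left out a pair. The miR-46, miR-49, miR-75, miR-86 and miR-251 families, of 2 tested strands each, held 0 calls in edgeR's test, with members between -0.66 and 0.23. At an unadjusted p under 0.05 there were 1, 2, 0, 0 and 0 strands in these families in that order, and DESeq2 called 0, 2, 0, 1 and 1.

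Other neighbouring hairpins were described by their own values, and differences between neighbours were not tested. In the cluster of miR-61 and miR-250, miR-250-3p and miR-250-5p rose (0.48 ± 0.14 and 0.71 ± 0.11), whereas miR-61-3p (-0.10 ± 0.15) and miR-61-5p (-0.64 ± 0.24) did not pass the test. In that of miR-359 and miR-785, miR-359 rose (0.50 ± 0.13) and miR-785-3p did not pass (0.23 ± 0.12). Of the 6 strands of the cluster of miR-42 to miR-44, miR-43-3p and miR-44-3p fell. The 4 strands of miR-73 and miR-74 held 0 calls in edgeR's test and in DESeq2, with 0 at an unadjusted p under 0.05.

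The largest gain in mean level was that of miR-70-3p, ahead of miR-237-5p (429100 in the third cycle and 283000 in the second cycle). miR-70-3p and miR-77 were named after their values were seen. miR-70-3p, encoded in an intron of pmp-5, averaged 402100 ± 37700 normalised counts in the third cycle, against 253500 ± 36900 in the second cycle (SD, n = 7 each), without overlap (0.67 ± 0.07, SE, edgeR adjusted p = 0.000188). miR-77-3p averaged 23920 ± 8830 in the third cycle and 8219 ± 3190 in the second cycle (1.57 ± 0.08, SE, edgeR adjusted p = 5.35e-06), again without overlap. Its passenger miR-77-5p rose by 1.42 ± 0.15.

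Falls were smaller than rises. Where the mean reached 100 normalised counts, the 10 largest falls ran from -0.57 to -0.81, against rises of 3.06 to 9.13 for the 10 largest. miR-254-3p, encoded in an intron of the guanylyl cyclase gene gcy-9, had 821.6 to 2022 normalised counts in the third cycle (median 1801), against 2116 to 3210 in the second cycle (median 2595). Its cycles did not overlap (-0.79 ± 0.13, SE, adjusted p = 0.00185). miR-231-3p had 1170 to 1882 in the third cycle, against 1949 to 2887 in the second cycle, also without overlap (-0.57 ± 0.06, adjusted p = 0.000295), and its passenger miR-231-5p fell by 0.61 ± 0.12. miR-1821-3p fell by 0.59 ± 0.06, miR-1022-5p by 0.60 ± 0.07 and miR-62 by 0.57 ± 0.09, each lower at all 7 matched hours. miR-1820-5p fell by 0.67 ± 0.19, a call lost in 6 of 20 alternatives, and miR-234-3p by 0.72 ± 0.23. miR-234-3p was lower at 6 of 7 matched hours and was no longer called when any of 4 matched pairs was left out. It peaked at 28 h in the third cycle and at 17 h in the second cycle, which are not matched hours.

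The 4 strands listed as neuron markers all fell, against 19.1% of all strands. lsy-6-3p, which sets the left-right asymmetry of the ASE taste neurons, had a mean of 1221 ± 158 normalised counts in the third cycle, against 1719 ± 243 in the second cycle (SD, n = 7 each), and fell by 0.49 ± 0.08 (SE, edgeR adjusted p = 0.00138). miR-791-3p, the less abundant strand of a hairpin known from carbon dioxide-sensing neurons, had 88.3 to 154.1 in the third cycle, against 160.4 to 275.3 in the second cycle (-0.77 ± 0.18, adjusted p = 0.00914). miR-124-3p, enriched in ciliated sensory neurons, fell by 0.29 ± 0.10 (adjusted p = 0.0389), and miR-790-5p fell by 0.81 ± 0.26 (adjusted p = 0.0344). miR-790-5p was lower at 5 of 7 matched hours and lost its call when any of 4 matched pairs was left out, and miR-124-3p lost its call in 5 such fits. miR-790-5p peaked at 28 h in the third cycle and at 16 h in the second cycle, with lows at 26 h and 15 h. These hours are not matched, so the pairing did not align its course within the cycle. The summed level of the 4 markers was 2520 to 3777 in the third cycle, against 3861 to 4979 in the second cycle, without overlap. The muscle marker miR-1-3p had 11790 to 13810 in the third cycle, against 11600 to 13570 in the second cycle (0.02 ± 0.06, adjusted p = 0.83). The part of cell numbers in these values was not tested.

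**Figure D3:**
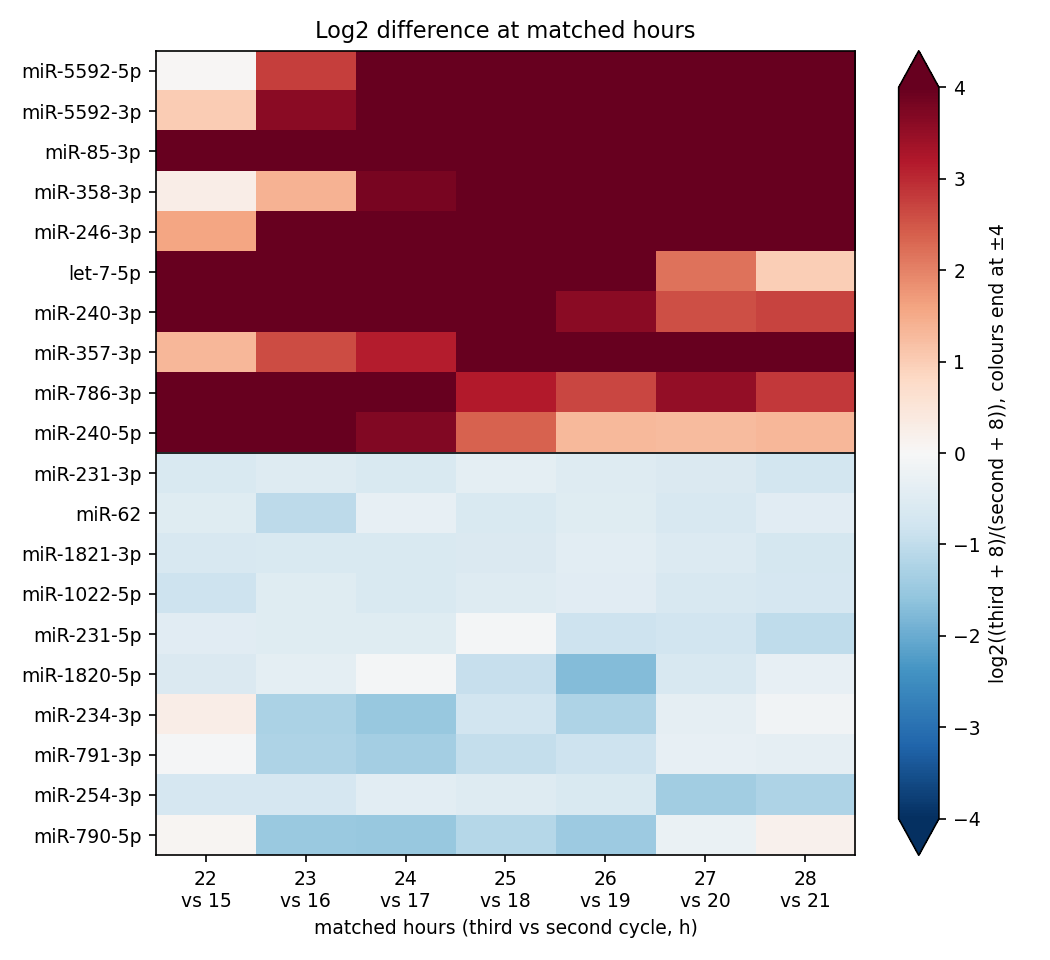
Log2 ratio of normalised counts at each matched hour (columns, the third over the second cycle, 8 added to each level) for the 10 largest rises (above the line) and the 10 largest falls (below it) at means of 100 or more. Red is higher in the third cycle, blue lower, and colours end at 4 in either direction. let-7-5p, miR-240 and miR-786 are strongest at the first matched hours, whereas miR-5592, miR-357 and miR-358 are strongest at the last.

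Of the 5 strands with the highest mean over both cycles, 3 fell, 1 rose (miR-82-3p) and 1 (miR-58a-3p) did not pass the test. Over all strands 19.1% fell and 23.9% rose, and 5 strands are too few to set against these shares. miR-228-5p, found in glia and hypodermis, averaged 1006000 ± 124000 normalised counts in the third cycle, against 1331000 ± 125000 in the second cycle (SD, n = 7 each), and fell by 0.41 ± 0.09 (SE, edgeR adjusted p = 0.00701). miR-72-5p fell by 0.19 ± 0.04 (adjusted p = 0.00405) and miR-57-5p, a strand of posterior epidermis, by 0.20 ± 0.05 (adjusted p = 0.0148). These 3 falls, small in fold, together exceeded the gains of miR-70-3p and miR-237-5p in normalised counts. Because levels are shares of a total, such losses raise all other shares, and with TMM scaling the median difference over all strands was -0.03 in place of 0.03, with 61 strands higher and 64 lower.

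Beyond the shift in level, the slope within the cycle was compared by a linear term in hour. It was steeper in the third cycle for 14 strands (5.15%) and shallower for 16 (5.88%). The steepest gains were those of strands that climbed between 22 and 28 h, some of them already present in the second cycle. The slope of miR-5592-3p was 1.38 ± 0.19 log2 units per hour greater in the third cycle (SE, adjusted p = 0.00187), and that of miR-5592-5p 1.51 ± 0.38. miR-358-3p (1.06 ± 0.25), miR-246-3p (0.68 ± 0.13), miR-357-3p (0.66 ± 0.07) and miR-59-3p (0.61 ± 0.06) also steepened. The slope call for miR-5592-5p was lost in 5 of the 7 fits that left out a pair, with 0.88 log2 units per hour without the pair of 22 and 15 h (adjusted p = 0.139, 0.000154 to 0.139 over 12 alternatives), that for miR-358-3p in 3 and that for miR-246-3p in 1. Other strands had a shallower slope in the third cycle, whereas the slope difference of miR-85-3p was -0.22 ± 0.12 and did not pass the test (adjusted p = 0.342). Among the shallower strands, let-7-3p fell and then rose within each cycle, so a linear slope does not describe its course. miR-240-5p was lowest at 23 h in the third cycle and highest at 28 h. let-7-3p changed by -1.13 ± 0.17 log2 units per hour, miR-240-5p by -1.05 ± 0.16, let-7-5p by -0.78 ± 0.17, miR-240-3p by -0.65 ± 0.06 and miR-786-3p by -0.46 ± 0.10. All 4 strands of the mir-240 and mir-786 cluster and 4 of the 7 let-7 family members (let-7-5p, miR-48-5p, miR-84-5p and miR-241-5p) were shallower, and none of either list was steeper. The call for miR-786-3p was lost in 3 of the 7 fits that left out a pair. The call for let-7-5p (adjusted p = 0.022) was lost without the matched pairs of 23, 27 or 28 h, at adjusted p = 0.0512, 0.0859 and 0.138 (0.0066 to 0.138 over its alternatives).

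Hourly profiles within the cycles were compared next. At means of 100 or more, 45 strands had a range of at least 1 log2 unit within each cycle, and 20 of them peaked at the same matched hour and 33 within 1 h of it. Distance was counted around the 7 h cycle. The 33 therefore include let-7-3p and miR-37-5p, which peaked at 22 h and 21 h, adjoining hours that are not a repeated peak. The 45 were picked by range alone and include strands that climbed to the last hour of both cycles, such as miR-85-3p, miR-240-3p and miR-786-3p, for which a shared peak hour is no sign of a rhythm. The median range was 1.62 log2 units in the third cycle and 1.72 in the second cycle. lin-4-3p peaked at 22 h (2099 normalised counts) and was lowest at 26 h (90.8) in the third cycle, against a peak at 15 h (2389) and a low at 19 h (89.2) in the second cycle. Its mean level did not pass the test (-0.24 ± 0.24, SE, adjusted p = 0.446), and the hourly profiles had r = 0.93 over 7 matched hours as a description. miR-235-3p, which maintains the quiescence of blast cells in starved larvae, ranged from 27320 to 380500 in the third cycle, against 34100 to 330400 in the second cycle (r = 0.94). miR-71-5p, known for its part in adult lifespan, ranged from 16510 at 23 h to 119800 at 27 h in the third cycle, against 13570 at 16 h to 69940 at 20 h in the second cycle (r = 0.94), and its slope was steeper by 0.15 ± 0.04 (adjusted p = 0.0237). miR-71-5p fell, rose and fell again within each cycle, so a linear slope does not describe its course, and this slope call was not followed through the alternatives. Neither guide passed the test of level, in which miR-235-3p differed by 0.41 ± 0.15 (adjusted p = 0.0571) and miR-71-5p by 0.32 ± 0.13 (adjusted p = 0.0746).

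let-7-3p, the passenger of let-7-5p, had another course. It had 9112, 2179, 565.0, 242.7, 233.4, 1363 and 5908 normalised counts at 22 to 28 h, against 318.6, 104.6, 34.4, 19.0, 275.3, 4016 and 8655 at 15 to 21 h. The peak at 21 and 22 h straddled the boundary of the cycles, the range was 5.24 log2 units in the third cycle and 8.33 in the second cycle, and the strand was lower in the third cycle at 3 of 7 matched hours. Its difference of 2.13 ± 1.11 did not pass the test (adjusted p = 0.153). When libraries were paired 8 h apart, an alternative chosen after seeing the data, the difference was 2.09 and passed (adjusted p = 0.00329), and over 20 alternatives the adjusted p ran from 0.00221 to 1.

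**Figure D4:**
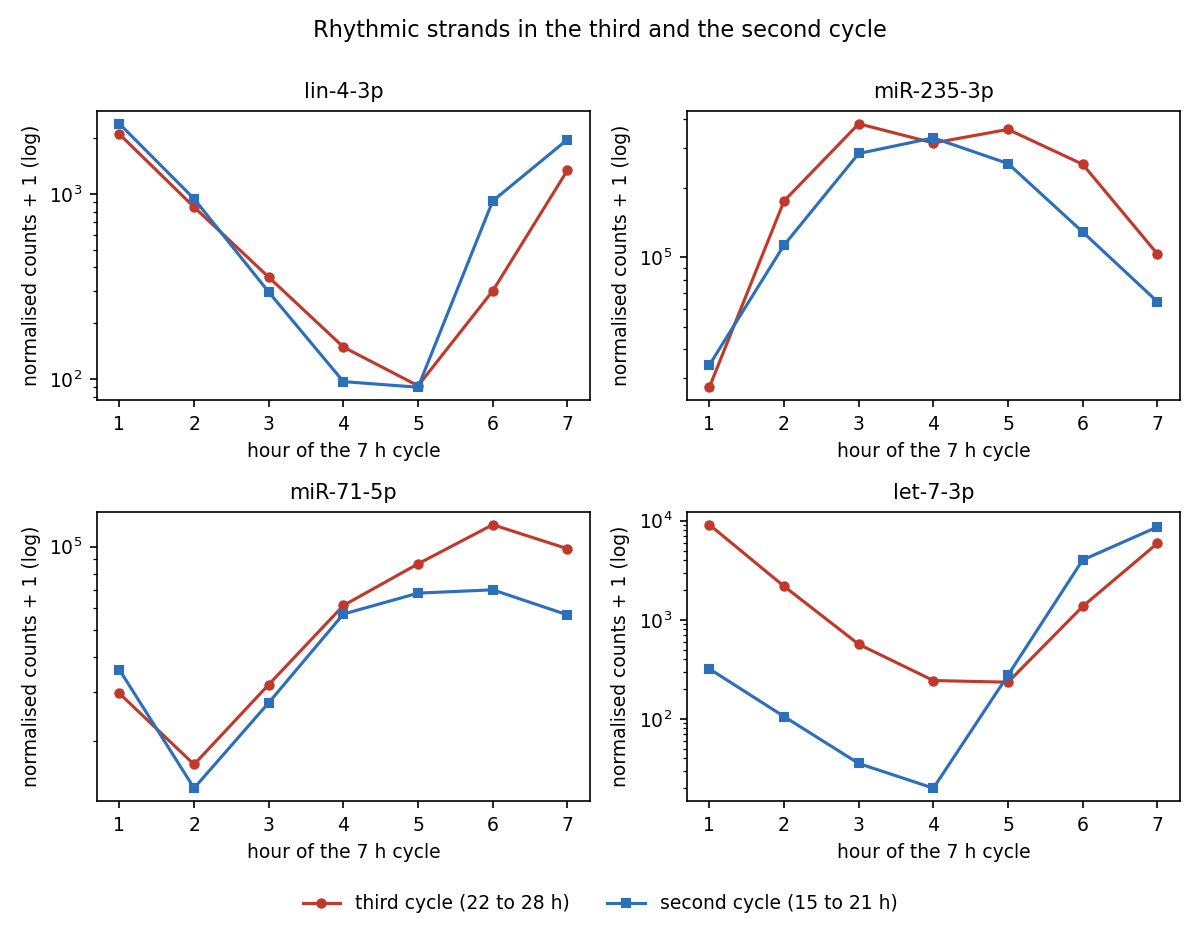
Normalised counts plus 1 (log axis, scaled separately in each panel) against the hour of the 7 h cycle for lin-4-3p, miR-235-3p, miR-71-5p and let-7-3p, with the third cycle as red circles and the second cycle as blue squares, 1 library per point. The 2 curves of lin-4-3p nearly coincide at their lows (90.8 at 26 h and 89.2 at 19 h), whereas let-7-3p starts the third cycle at 9112 and the second at 318.6.

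Both strands were tested for 102 hairpins. Of the 102 guides 29 rose and 17 fell, and of the 102 passengers 22 rose and 16 fell. Over all 272 strands 23.9% rose and 19.1% fell, and a difference between guides and passengers in these counts was not tested. In 18 hairpins both strands rose and in 6 both fell. In miR-229 the strands moved apart, since miR-229-5p rose by 0.37 and miR-229-3p fell by 0.39, the fall being lost in 4 of 20 alternatives. The ratio of passenger to guide was tested with limma on log2 values. It was higher in the third cycle for 3 hairpins (2.94%) and lower for 6 (5.88%). For let-7 there were 19.0 passenger counts per 1000 guide counts in the third cycle, against 93.3 in the second cycle as geometric means (-2.29 ± 0.51, log2, SE, adjusted p = 0.0238), and the ratio was lower at all 7 matched hours. For miR-85 the ratio was 3.81 per 1000 in the third cycle, against 14.1 in the second cycle (-1.89 ± 0.34, adjusted p = 0.0137), with a passenger at 0 in 5 libraries of the second cycle. In an edgeR fit with library as a factor the change of miR-85 was -1.02 and was not called (adjusted p = 0.451), and without the pair of 27 and 20 h its adjusted p was 0.0544 (8.4e-05 to 0.451 over 10 alternatives). miR-229 had 152 per 1000 in the third cycle, against 257 in the second cycle (-0.76 ± 0.14). The ratios of miR-237, miR-84 and miR-244 were lower by 0.72 ± 0.17, 0.64 ± 0.13 and 0.64 ± 0.15. The call for miR-237 was lost in 6 of 11 alternatives, 5 of which left out a pair (adjusted p up to 0.427), and that for miR-84 in 2 of 11 (up to 0.211). The ratio was higher for miR-253 (1.06 ± 0.22), miR-797 (0.81 ± 0.13) and miR-4813 (0.59 ± 0.12), with 12.7, 1080 and 93.6 per 1000 in the third cycle, against 6.10, 617 and 62.1 in the second cycle. The passenger of miR-797, named by its mean over all 44 libraries, was thus the more abundant strand in the third cycle. In edgeR's test of level neither its passenger nor its guide passed (adjusted p = 0.273 and 0.199). Without the pair of 27 and 20 h the calls for miR-253 and miR-4813 were lost, and that for miR-4813 also without the block. The let-7 call was lost without the matched-hour block (adjusted p = 0.211) and without the pair of 27 and 20 h (adjusted p = 0.0708), and over 11 alternatives the adjusted p ran from 0.00748 to 0.211.

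The change between these cycles was also set against the changes from the first to the second and from the third to the fourth cycle, in a fit over 28 libraries. The contrast is the step between the second and the third cycle minus the mean of those neighbouring steps. It was above 0 for 9 strands (3.31%) and below 0 for 2 (0.735%) at an adjusted p under 0.05. miR-5592-3p had a contrast of 6.35 ± 1.34 (SE, adjusted p = 0.00955), miR-358-3p of 4.84 ± 1.19, miR-357-3p of 3.44 ± 0.77, miR-85-3p of 3.16 ± 0.67 and miR-59-3p of 2.18 ± 0.54. The contrast of let-7-5p was 1.52 ± 0.83 and missed the threshold (adjusted p = 0.398). Of the miR-35 family, known for its requirement in embryos, 3 of 8 members (miR-36-3p, miR-37-3p and miR-39-3p) had a contrast above 0. Their hairpins lie in 1 cluster, with gaps of 23, 2 and 61 bases from miR-36 to miR-39, so the 3 are not independent cases. The contrast of miR-37-3p lost its call in 7 of 12 alternatives, and those of miR-36-3p and miR-39-3p were not followed strand by strand. In the comparison of the third with the second cycle alone, miR-37-3p (0.59 ± 0.17, adjusted p = 0.0221) and miR-38-3p (0.49 ± 0.16, adjusted p = 0.0336) rose and the other 6 did not pass the test. Both calls were lost without the matched-hour block (adjusted p = 0.328 and 0.335) and with pairs 8 h apart (0.121 and 0.0687), with ranges over 20 alternatives of 0.00282 to 0.864 for miR-37-3p and 0.015 to 0.732 for miR-38-3p, and miR-38-3p lost its call in 4 fits that left out a pair. The family's summed level overlapped, with 25210 to 54240 normalised counts in the third cycle and 16310 to 70310 in the second cycle. These contrasts depended on single phases of the cycle, since without the libraries of phase 4 (18, 25 h and their counterparts) or of phase 5 no strand passed above 0, with 22 and 23 strands at an unadjusted p under 0.05, and without phase 6 a single strand passed. With limma on log2 values with 8 added, the contrasts were 4.15 for miR-5592-3p (adjusted p = 0.0508, 0.00148 to 0.0991 over 12 alternatives), 2.70 for miR-358-3p (0.0914, 0.00443 to 0.191) and 1.82 for miR-59-3p (0.0508, 0.00376 to 0.191), none of them called.

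**Figure D5:**
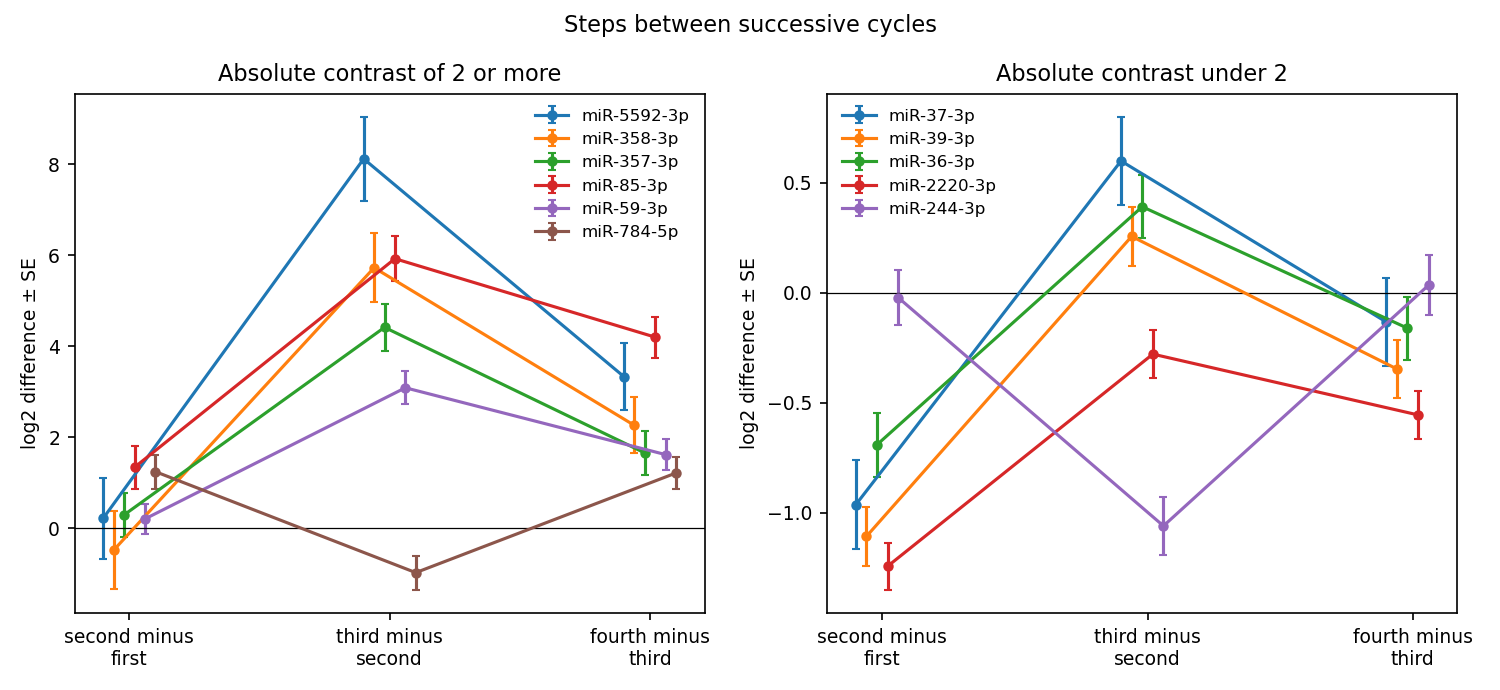
Fitted log2 difference between successive cycles (vertical axis, mean ± SE) for the 11 strands with a called contrast, those with an absolute contrast of 2 or more on the left and the others on the right. The step between the second and the third cycle stands highest for miR-5592-3p, miR-358-3p, miR-357-3p, miR-85-3p and miR-59-3p, and lowest for miR-784-5p and miR-244-3p.

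The 165 strands left out had means of at most 9.80 raw counts over all 44 libraries, and 27 of them had no count in any library. Of the 272 tested, 8 had a mean under 10 raw counts over the 14 libraries compared, 10 over the third cycle and 16 over the second cycle. A strand could therefore pass through hours outside both cycles.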

How the data were processed

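The deposited table held raw read counts per mature strand in 44 hourly libraries, which the authors obtained by aligning reads of Illumina small RNA libraries with Bowtie to build ce10 and assigning them to miRBase strands. The other deposited table held log2 values that the authors made by scaling to the mean library total and adding 8 (not used here), and 0 value columns lacked a sample. Counts were summed per library, and strands with a mean of at least 10 raw counts were kept. The main test was edgeR 4.0.16 (quasi-likelihood, R 4.3.3) on the deposited counts with scaling to the library total and phase as a block over 7 matched pairs, which left 6 residual degrees of freedom. P-values were adjusted by Benjamini-Hochberg over all 272 strands, or 102 hairpins, with a threshold of 0.05. The SE given with edgeR's values was derived from the test, as the absolute log2 value divided by the square root of its F statistic. Slopes used a cycle by hour term, and the step contrast the 4 cycles with phase as a block. Strand ratios were fitted with limma 3.58.1 on log2 ratios with 0.5 added, which moves the ratio where counts are low and can understate or overstate the change. DESeq2 1.42.0 and nlme 3.1.168 served as alternatives. Figures were drawn with matplotlib 3.10.9, and scripts were tested on simulated data.

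The blocking was checked by the correlation of deviations from the cycle means at matched hours, which was 0.27 to 0.68 in all 7 pairs. For hours 5 to 7 of the cycle the best match lay 8 h away. Intervals and floors cover counting error only, and the depth of 7059421 to 13630998 counts makes 1 count worth 0.825 normalised counts at 18 h and 1.50 at 17 h.

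The strands and lists were chosen with earlier results of these data known. Strands named are the 10 largest rises and falls among called strands with a mean of at least 100, members of listed families, clusters and cell type markers, the let-7, lin-4, miR-235 and miR-71 hairpins, the largest slope, ratio and step changes, the 5 most abundant and the 6 most variable strands. Positions are from Ensembl and RefSeq on WBcel235 and none was converted from ce10. No sequences are shown.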

Additional observations from a re-analysis of the deposited data

Results flagged for a closer look

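miR-62 had an hour far from the others of its cycle. At 16 h it had 5473 normalised counts, against 3453 at the next highest hour of the second cycle, a gap of 0.624 of the range, past Dixon's 95% critical value for 7 values. This was the only such case in 62 groups, and chance gives about 1 in 20.

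For 11 strands the step between the second and the third cycle differed from the mean of the neighbouring steps in edgeR's test. The contrast was 6.35 for miR-5592-3p, 4.84 for miR-358-3p, 3.44 for miR-357-3p, 3.16 for miR-85-3p, 2.18 for miR-59-3p, 1.15 for miR-37-3p, 0.98 for miR-39-3p, 0.82 for miR-36-3p and 0.62 for miR-2220-3p. It was -2.21 for miR-784-5p and -1.07 for miR-244-3p, both of which had a mean under 50 normalised counts in each cycle. miR-2220-3p did not pass the test between the cycles alone (-0.29 ± 0.13, SE, adjusted p = 0.111), nor did miR-784-5p (-0.97 ± 0.48, adjusted p = 0.132).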

How the results depend on the processing

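Of 65 strands higher and 52 lower in the third cycle, the counts were 28 and 32 with autocorrelated matched differences, 31 and 21 with phases 1, 3, 5 and 7 alone, and 8 and 0 with phases 2, 4 and 6 alone, where 94 strands in either direction had an unadjusted p under 0.05 in edgeR. Without the replicate block they were 55 and 40, with pairs 8 h apart, chosen after seeing the data, 65 and 49, and without each pair in turn 55 to 69 and 39 to 48. TMM factors, DESeq2 size factors, the DESeq2 test, limma and both filters stayed within 1.5 times, and no called named strand changed sign under any alternative. Of 53 named strands called, 36 lost the call with autocorrelated differences, 24 with phases 1, 3, 5 and 7 and 48 with phases 2, 4 and 6, and 3 to 10 without a pair. Leaving out a pair gave 7 to 17 strands steeper and 13 to 20 shallower, 7 without phase 2 and 9 without phase 6 or 7. Ratio calls were 1 higher with a mean of at least 100 and 2 lower with no replicate block, and 1 to 6 and 1 to 7 without a pair. Step contrasts below the neighbours were 4 with TMM factors, DESeq2 size factors or limma, 1 with no filter and 0 with a mean of at least 100 (7 at an unadjusted p under 0.05), and leaving out a phase gave 0 to 15 above and 1 to 6 below. The log2 library total ranged from -0.0846 to 0.155 without a pair. Depth limits strands with few counts in the second cycle, such as miR-5592-5p and miR-85-5p. No second time course was analysed here, and each hour rests on a single library.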
